A study of Mus musculus with 8 samples.

Results

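The insulin-like growth factor (IGF) binding proteins are secreted carriers of IGF-1 and IGF-2, and the array used here held 5 of them, IGFBP-1, IGFBP-2, IGFBP-3, IGFBP-5 and IGFBP-6, among 111 analytes. They were taken as every analyte whose name begins with IGFBP, a rule that uses names and no measured value. Each was read as 2 duplicate spots on each of 8 membranes. Of the 5, 4 were above the detection floor described below on at least 4 of the 8 membranes. IGFBP-1 was above it on 2.

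IGF binding proteins hold IGFs away from the IGF-1 receptor, lengthen their life in plasma and release them when proteases cut the carrier. Several also act without IGF: IGFBP-2 carries an integrin-binding motif, IGFBP-3 and IGFBP-5 bind matrix and can enter cells, and IGFBP-6 prefers IGF-2 to IGF-1. IGFBP-1 comes mainly from liver, where insulin holds it down and inflammatory cytokines raise it. In tumours the carriers come from tumour cells, fibroblasts, endothelium and plasma alike, and a lysate does not separate these sources.

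The lysates came from TC-1 tumours, a mouse epithelial tumour line carrying HPV16 E6 and E7, and from tumours of TC-1/IR, its radiation-resistant counterpart. Female C57BL mice of 10 weeks had been given 100000 cells of TC-1 or 300000 of TC-1/IR subcutaneously in the right thigh, so the line and the number of cells given cannot be told apart. From a volume of about 100 mm3, at 8 to 10 days, mice of each line received buffer, whole-body gamma irradiation of 2 Gy daily for 4 days (RT), rhIL-7-hyFc, a long-acting human interleukin-7 fused to a hybrid Fc, at 50 µg under the skin on days 0 and 7 (IL-7), or RT with IL-7. These 2 lines and 4 treatments gave 8 groups with 1 membrane each. Sample titles speak of pooled lysates and the design text of tumours taken singly from mice, which leaves unclear how many animals a membrane stands for. No marker of the tumour cells themselves, such as E6 or E7, was on the array. Less of a protein per cell and fewer of the cells that make it cannot be told apart in a lysate.

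Intensities are given in arbitrary units as deposited, each the mean of 2 spots. The floor was 2.49, which is 1% of the highest analyte mean of 249, and lower values were set to it before any log2 ratio. A fold against such a value is written "at least". Summed signal ran from 739 to 1495 per membrane, and 36 to 91 analytes were above the floor. The lowest sums were the TC-1/IR membranes with buffer (765) and with RT and IL-7 (739). The 5 carriers together made up 1.69% to 3.06% of the summed signal. Because the sums differ, ratios are also given after centring, in which each membrane was shifted to the same median over the 28 analytes above the floor on all 8.

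The genes lie at 3 places in the mouse genome. Igfbp2 and Igfbp5 are neighbours on chromosome 1, Igfbp1 and Igfbp3 are neighbours on chromosome 11, and Igfbp6 lies on chromosome 15. The 250 bases before the transcription start are shown for Igfbp2 and Igfbp5, neighbours whose proteins were both lower, as deposited, on every TC-1/IR membrane, and for Igfbp6, whose protein was not. Sequences are from RefSeq on GRCm38.p6, given 5′ to 3′ on the strand of the gene. Capitals mark a GC box (letters GGGCGG on either strand) and a TATA box (letters TATAAA on either strand), motifs that do not overlap each other.
Igfbp2, chr1:72824230-72824479, plus strand: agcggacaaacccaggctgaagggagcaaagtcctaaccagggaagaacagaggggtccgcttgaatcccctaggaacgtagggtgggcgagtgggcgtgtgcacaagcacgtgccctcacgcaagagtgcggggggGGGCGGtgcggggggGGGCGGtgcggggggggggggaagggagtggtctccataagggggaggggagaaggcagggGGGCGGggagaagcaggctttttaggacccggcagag
Igfbp5, chr1:72874866-72875115, minus strand: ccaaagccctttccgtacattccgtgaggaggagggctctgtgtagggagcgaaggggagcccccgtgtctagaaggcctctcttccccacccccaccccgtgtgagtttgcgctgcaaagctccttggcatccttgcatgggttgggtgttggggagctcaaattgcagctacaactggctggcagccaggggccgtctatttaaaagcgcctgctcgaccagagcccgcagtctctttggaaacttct
Igfbp6, chr15:102143936-102144185, plus strand: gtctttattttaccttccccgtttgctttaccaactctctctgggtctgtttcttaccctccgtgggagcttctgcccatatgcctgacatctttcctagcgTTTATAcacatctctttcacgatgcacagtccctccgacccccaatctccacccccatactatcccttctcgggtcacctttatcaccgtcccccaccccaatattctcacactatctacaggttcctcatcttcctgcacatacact
The window of Igfbp2, the first of 2 listed for this gene, held 3 GC boxes and 0 TATA boxes, with 67.2% G or C. That of Igfbp5 held 0 of either, with 58.8%, and that of Igfbp6 held 0 GC boxes and 1 TATA box, with 49.6%. These counts are of exact letters anywhere in the window, with no regard to distance from the start, so they do not tell whether a match works as such a box. Of 32851 mouse promoter windows of this length, 32.7% held a GC box and 12.4% a TATA box. The neighbours Igfbp2 and Igfbp5 thus shared neither motif in these windows.

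IGFBP-2, the integrin-binding carrier, was the one of the 5 that passed the test for a difference between the lines. In TC-1 tumours its intensity was 7.20 (buffer), 8.18 (RT), 6.77 (IL-7) and 4.62 (RT with IL-7). Resistant TC-1/IR tumours gave 0.39, 3.15, 3.22 and 1.35 in the same order. The groups did not overlap: the highest TC-1/IR membrane was below the lowest TC-1 membrane, and the spots of those 2 membranes were apart as well. Other analytes, such as FGF-21 and G-CSF, separated the lines too. The share of all analytes that did is not given, so this separation has no background here. The line means of IGFBP-2 were 6.69 with a coefficient of variation of 22.4% and 2.03 with one of 68.8%. Each was taken over 4 membranes that differ in treatment.

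**Figure D1:**
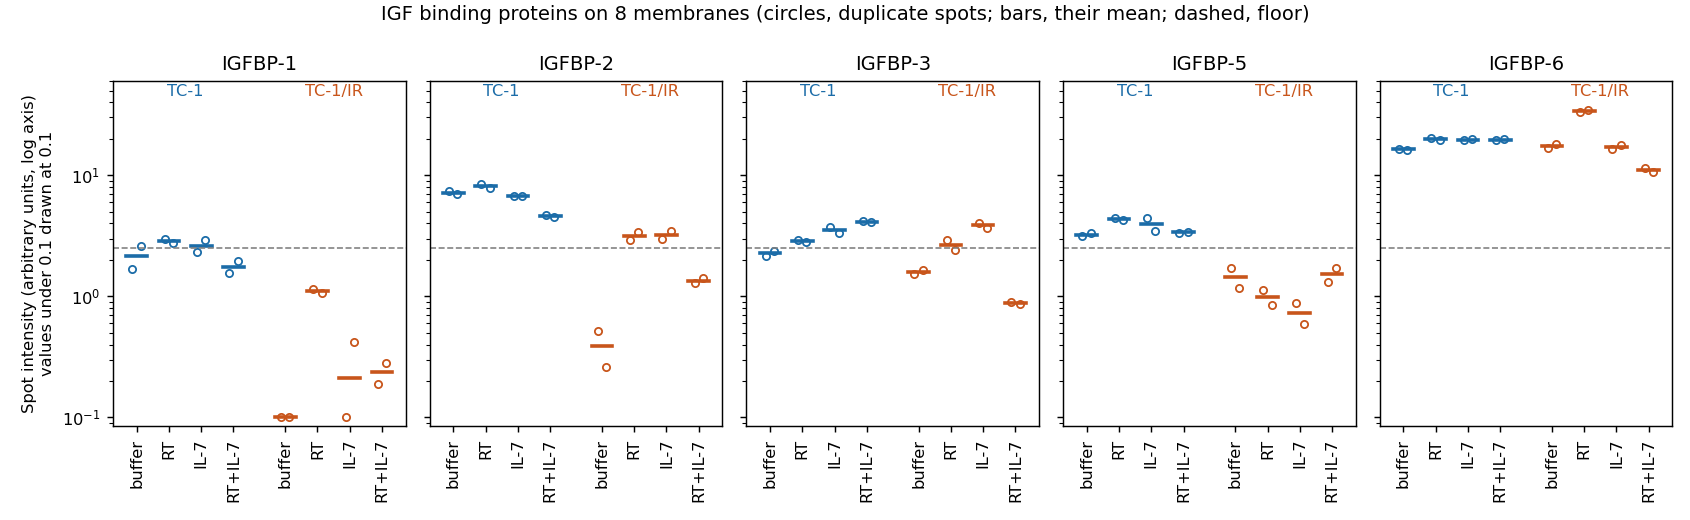
Spot intensity of the 5 IGF binding proteins on a log axis, with 1 column per membrane, circles for duplicate spots, bars for their mean and a dashed line at the floor of 2.49; values under 0.1 are drawn at 0.1. As deposited, IGFBP-1, IGFBP-2 and IGFBP-5 lie lower on all 4 TC-1/IR membranes than on any TC-1 membrane, whereas IGFBP-3 and IGFBP-6 overlap. IGFBP-1 is above the floor only on the TC-1 membranes after RT and after IL-7, and IGFBP-5 overlaps after centring. Other analytes, such as FGF-21 and G-CSF, separate in the same way, and the share of all analytes that do is not given.

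With limma over all 75 analytes that passed the filter, IGFBP-2 was 2.33-fold lower in TC-1/IR (log2 difference -1.22, SE 0.24, 95% interval -1.78 to -0.65, Benjamini-Hochberg adjusted p = 0.010). It stood 8 of 75 by p. Lower analytes were common in this comparison: 40.0% of the 75 were called lower and 1.33% higher, and the median log2 difference of all was -0.58. One of the 4 tested carriers was called, a share below that background, and the 4 had a median of -0.37. By treatment, IGFBP-2 was lower in 4 of 4 pairs: by at least 2.89-fold under buffer, by 2.60-fold after RT, by 2.10-fold after IL-7 and by at least 1.86-fold after both. Of all analytes measured in these pairs, 51.4%, 36.7%, 57.0% and 56.4% were lower by the rule of size defined below. After centring IGFBP-2 was lower by at least 2.35, at least 2.77, 1.58 and at least 1.96-fold, against 31.9%, 38.3%, 36.9% and 34.9% of analytes. The centred limma fit gave a log2 difference of -1.08 and an adjusted p of 0.00446, where 30.6% of 72 analytes were called lower and 6.94% higher. Leaving out the TC-1 membrane after RT brought the adjusted p to 0.0504, just past the threshold of 0.05, with a log2 difference of -1.09. Without the 2 TC-1/IR membranes of lowest summed signal, a check chosen after the data were seen, the log2 difference was -1.04 and the adjusted p 0.0348.

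IGFBP-5, a carrier that binds extracellular matrix and is abundant in connective tissue and muscle, was above the floor on all 4 TC-1 membranes and on none of the TC-1/IR membranes. Its TC-1 readings were 3.23 (buffer), 4.37 (RT), 3.95 (IL-7) and 3.37 (both). The TC-1/IR readings were 1.45, 0.99, 0.735 and 1.52. As deposited the lines did not overlap, though the share of all analytes that separate in this way is not given. Every TC-1/IR value was below the floor, so each fold is a lower bound. After centring the lines overlapped, with 2.71 on the TC-1/IR membrane after both treatments and 2.63 on the TC-1 membrane with buffer. IGFBP-5 passed the filter only through TC-1, so the direction of its difference was fixed by the filter. All its TC-1/IR values were also set to the floor, so a limma p at that floor as deposited is no evidence of a direction. As bounds, IGFBP-5 was lower in the resistant tumours by at least 1.30-fold (buffer), 1.75-fold (RT), 1.59-fold (IL-7) and 1.35-fold (both). The RT and IL-7 pairs met the rule of size, where 36.7% and 57.0% of analytes were lower. After centring the bounds were 1.05 (buffer), 1.48 (RT) and 1.17-fold (IL-7). After both treatments, with both centred values above the floor, IGFBP-5 was 1.31-fold lower. No pair met the rule after centring. In limma the difference missed the threshold (log2 difference -0.57, SE 0.20, 95% interval -1.04 to -0.10, adjusted p = 0.0543). With treatment as a block, which pairs the lines within each treatment, the adjusted p was 0.0435 for the same difference. With the floor lowered to 0.5% of the highest analyte the log2 difference was -1.45 with an adjusted p of 0.00455. After centring it was -0.32 with an adjusted p of 0.218. Over the 8 fits that each left out 1 membrane, the adjusted p ran from 0.0408 to 0.183.

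IGFBP-1, the insulin-suppressed carrier of liver, was above the floor least often. TC-1 tumours gave 2.15 (buffer), 2.87 (RT), 2.62 (IL-7) and 1.75 (both). Resistant tumours gave 0.001, the placeholder for no signal, then 1.11, 0.211 and 0.235. All TC-1/IR values were below all TC-1 values, with means of 0.388 ± 0.489 and 2.35 ± 0.498 (SD, 4 membranes each). The share of all analytes that separate in this way is not given. Only the TC-1 membranes after RT and after IL-7 were above the floor, so IGFBP-1 was not tested at that floor. At the floor of 0.5%, with 96 analytes tested, 40.6% of them called lower and 1.04% higher, its log2 difference was -0.89 (95% interval -1.48 to -0.30, limma adjusted p = 0.0305). It passed that filter only through TC-1, all TC-1/IR values being below the lower floor too, so this p is no evidence of a direction. Over the 3 settings that tested it the adjusted p ran from 0.0305 to 0.541. At that floor IGFBP-2 and IGFBP-5 were called lower as well. In that comparison the other two, IGFBP-3 and IGFBP-6, had adjusted p of 0.327 and 0.916.

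**Figure D2:**
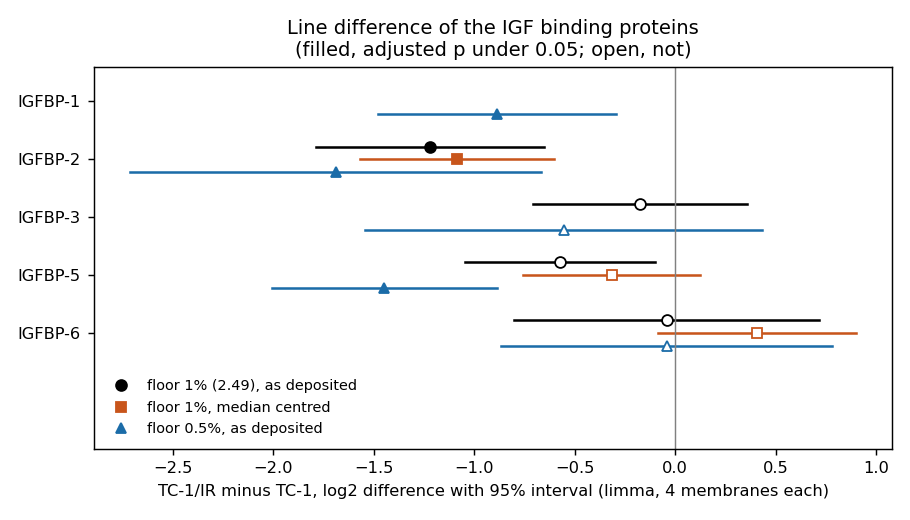
Log2 difference of TC-1/IR minus TC-1 for each carrier with its 95% interval from limma over 4 membranes of each line, at the floor of 1% as deposited (circles), after median centring (squares) and at the floor of 0.5% (triangles); filled symbols have an adjusted p under 0.05, and settings in which a carrier was not tested have no symbol. IGFBP-2 is filled in all 3 settings, and IGFBP-1, which passed the filter only through TC-1, and IGFBP-5 are filled at the lower floor.

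IGFBP-3, the main IGF carrier of plasma, gave a different pattern. TC-1 tumours read 2.27 (buffer), 2.87 (RT), 3.55 (IL-7) and 4.12 (both). Their resistant counterparts read 1.58, 2.67, 3.88 and 0.88. The lines overlapped, and the TC-1/IR membrane after IL-7 was second only to the TC-1 membrane after both treatments. The line difference did not pass the test (log2 difference -0.18, 95% interval -0.71 to 0.36, limma adjusted p = 0.592), and after centring IGFBP-3 no longer passed the filter.

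IGFBP-6, the carrier that prefers IGF-2, was the one carrier above the floor on all 8 membranes. TC-1 readings were 16.5 (buffer), 20.02 (RT), 19.7 (IL-7) and 19.6 (both), a spread of 1.22-fold from lowest to highest. Those of TC-1/IR were 17.6, 33.9, 17.2 and 11.0, a spread of 3.07-fold. The TC-1/IR values lay on both sides of the TC-1 range. The line means were 18.9 ± 1.65 and 19.9 ± 9.79 (SD, 4 membranes each). No line difference passed the test (log2 difference -0.04, 95% interval -0.80 to 0.72, limma adjusted p = 0.911), and after centring it was 0.41 with an adjusted p of 0.170. By pairs of membranes and the rule of size, IGFBP-6 was 1.69-fold higher in the resistant tumours after RT, where 13.3% of analytes were higher, and 1.77-fold lower after both treatments, where 56.4% were lower. After centring it was 1.81-fold higher under buffer (18.8% of analytes higher), 1.55-fold higher after RT (12.3%) and 1.05-fold lower after both. IGFBP-6 made up 1.36% to 1.67% of the summed signal on TC-1 membranes. On TC-1/IR membranes its share was 2.29% (buffer), 2.30% (RT), 1.15% (IL-7) and 1.49% (both).

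A ratio of 2 carriers above the floor on the same membrane does not depend on how the membranes are scaled, but a bound does, because the floor is fixed. The ratio of IGFBP-6 to IGFBP-2 was 2.29 (buffer), 2.45 (RT), 2.90 (IL-7) and 4.24 (both) on TC-1 membranes. On the resistant ones it was at least 7.05, 10.8, 5.33 and at least 4.43. After centring the bounds were at least 9.74 (buffer), at least 10.5 (RT) and at least 7.92 (both), with the other values as before. All TC-1/IR ratios and bounds were above all TC-1 ratios under both scalings. This pair holds IGFBP-2, the carrier called for line, so its separation is not separate evidence. The ratio of IGFBP-6 to IGFBP-3 did not separate the lines, with 4.43 in TC-1/IR after IL-7 and 4.75 in TC-1 after both. For IGFBP-6 to IGFBP-5 the TC-1/IR bound after both, at least 4.43, was below the TC-1 ratios of 4.59 to 5.81. The ratio of IGFBP-6 to IGFBP-2 shows that these 2 carriers differed unequally between the lines, not that either was constant.

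**Figure D3:**
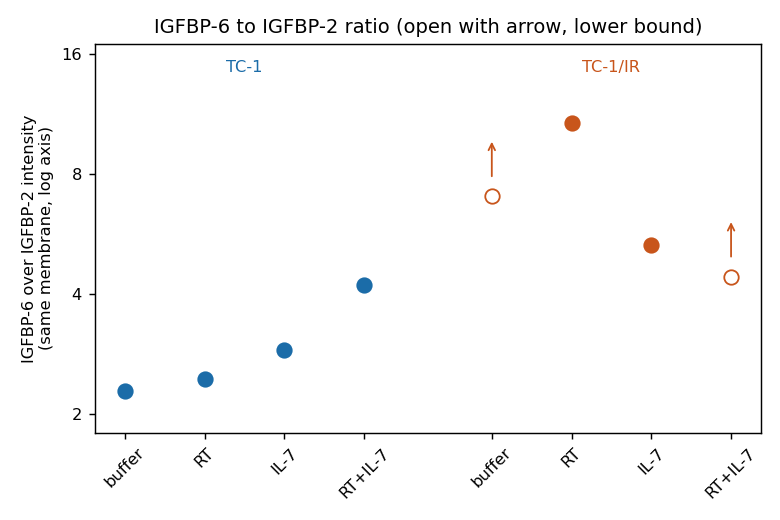
Ratio of IGFBP-6 to IGFBP-2 intensity on each membrane, on a log axis, with 1 point per membrane; open points with arrows are lower bounds, where IGFBP-2 was below the floor. The 4 TC-1 membranes lie between 2.29 and 4.24 and the 4 TC-1/IR membranes at 4.43 or above.

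None of the 4 tested carriers passed the threshold for either treatment. For RT the limma adjusted p was 0.969 for each of them, where 1.33% of the 75 analytes were called higher and 0.0% lower. For IL-7 it was 0.974 for each, where 0.0% were called in either direction and 0 of 75 had an unadjusted p under 0.05. IGFBP-3 had the largest IL-7 difference of the 4, a log2 difference of 0.39 with a 95% interval of -0.14 to 0.93. No carrier was called for a line-dependent response either, the adjusted p being 0.999 where line was crossed with RT and 0.982 where it was crossed with IL-7. Only 2 residual degrees of freedom were left and the intervals were wide, for example -2.64 to 0.77 for IGFBP-6 with IL-7.

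Single membranes were compared by a rule of size with no p-value: at least 1.5-fold, 1 membrane above the floor and spots that do not overlap. IGFBP-3 met it in 4 comparisons, and in each it did so after centring too. In each, 1 membrane was below the floor under both scalings. Centring could move only the other, TC-1 after both treatments (log2 shift -0.076) or TC-1/IR after IL-7 (0.028). Meeting the rule after centring is therefore little check on these folds. After RT with IL-7 the TC-1 reading was at least 1.65-fold higher than under buffer, where 16.9% of analytes were higher by this rule, and at least 1.74-fold after centring (37.3%). After IL-7 the TC-1/IR reading was at least 1.56-fold higher than under buffer, where 49.1% were higher, and at least 1.53-fold after centring (32.2%). After both treatments it was at least 1.56-fold lower than after IL-7, where 57.4% were lower, and at least 1.53-fold after centring (21.5%). After both treatments the resistant tumours read at least 1.65-fold lower than TC-1, where 56.4% were lower, and at least 1.74-fold after centring (34.9%). Centring alone brought the TC-1 reading after both treatments past the rule against RT, at least 1.74-fold higher (11.5% of analytes), and against IL-7, 1.65-fold higher (5.81%). RT with IL-7 thus gave the highest IGFBP-3 reading of the TC-1 membranes. Its TC-1/IR reading (0.88) was the lowest of that line before the floor was applied. The TC-1/IR reading with buffer (1.58) was below the floor too, so these readings tie on the floored scale. After centring the TC-1/IR reading after RT also fell below the floor. Whether the responses differ could not be tested, since each rests on 1 membrane.

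IGFBP-6 met the rule in 4 treatment comparisons within TC-1/IR, and in none of these after centring. It was 1.93-fold higher after RT than under buffer, where 46.3% of analytes were higher by the rule of size, and 1.08-fold higher after centring. It was 3.07-fold lower after RT with IL-7 than after RT, where 47.0% were lower, and 1.33-fold lower after centring. Against buffer it was 1.59-fold lower after both treatments, where 18.2% were lower, and 1.23-fold lower after centring. Against IL-7 it was 1.56-fold lower, where 57.4% were lower, and 1.17-fold higher after centring, so the direction turned. Summed signal of the same membranes was 765 (buffer), 1473 (RT), 1495 (IL-7) and 739 (both). In TC-1, IGFBP-6 after both treatments was 1.19-fold above buffer as deposited and 1.54-fold above it after centring, where 37.3% of analytes were higher.

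IGFBP-2 in TC-1 was 1.77-fold lower after RT with IL-7 than after RT, where 10.1% of analytes were lower. It was 1.56-fold lower than with buffer, where 13.3% were lower. After centring these were 1.42-fold and 1.20-fold, short of the rule. The combined log2 difference minus the sum of the single ones was -0.73 for tumours of TC-1 and -0.71 for the resistant ones, where floored values enter, and -0.28 and -0.34 after centring. The interaction of RT with IL-7 did not pass the test for IGFBP-2 (log2 difference -0.72, 95% interval -1.69 to 0.25, limma adjusted p = 0.313) or for IGFBP-6 (-0.94, -2.26 to 0.39, adjusted p = 0.317). The median of all 75 analytes for this interaction was -0.64, and 0 were called, with 14 at an unadjusted p under 0.05.

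**Figure D4:**
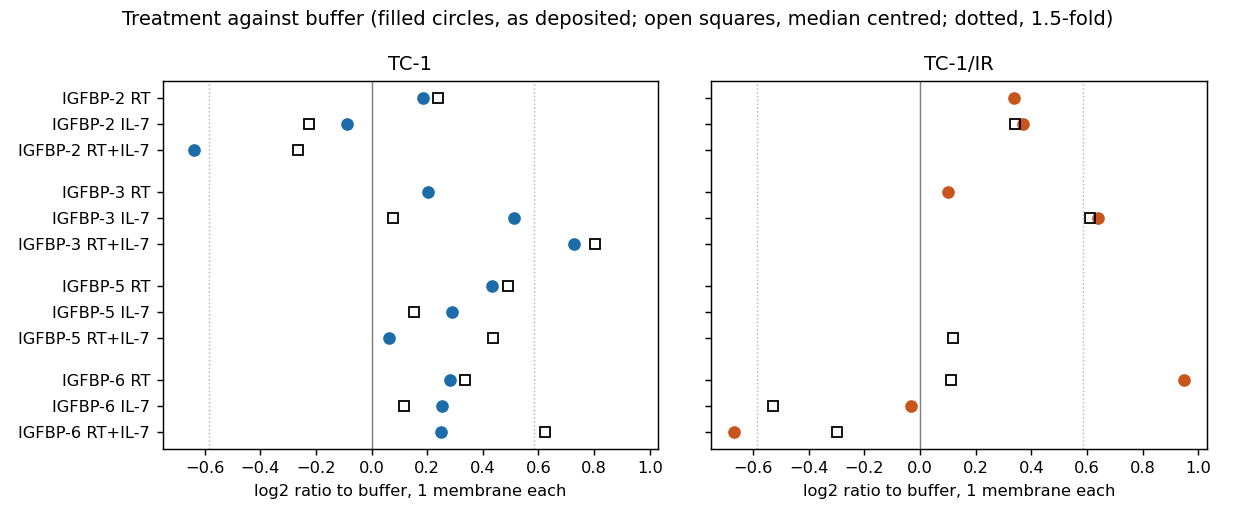
Log2 ratio of each treatment to buffer within TC-1 (left) and TC-1/IR (right) for 4 carriers, 1 membrane against 1, as deposited (filled circles) and after median centring (open squares), with dotted lines at 1.5-fold; values under the floor were set to it, and pairs with both membranes at or under it have no symbol. IGFBP-6 after RT in TC-1/IR moves from 1.93-fold to 1.08-fold on centring. IGFBP-3 after IL-7 in TC-1/IR stays above 1.5-fold, where the buffer value is at the floor under both scalings. In TC-1 IGFBP-3 after IL-7 moves from at least 1.43-fold to at least 1.05-fold.

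Across the 8 membranes the carriers fell into different patterns, described by Pearson's r of floored log2 values with no test, since the membranes share line, treatment and total signal. IGFBP-2 ran with IGFBP-5 (r = 0.92 as deposited, 0.72 after centring). With IGFBP-6 its r was 0.16 as deposited and -0.72 after centring. The analytes most like IGFBP-2 were IL-7 (0.985), the shed receptor TIM-1 (0.977), the TAM receptor ligand Gas 6 (0.962), the antimicrobial lectin Reg3G (0.952) and the inflammatory cytokine IL-1β (0.941). After centring IL-7 and TIM-1 still led, at 0.983 and 0.979. Here IL-7 names the mouse analyte of the array, not the human protein given as treatment. The IL-7 spots read 13.2, 13.9, 12.5 and 8.53 on the TC-1 membranes and 0.595, 3.80, 4.69 and 1.91 on those of TC-1/IR, in the order buffer, RT, IL-7 and both. It was lowest after both treatments in TC-1 and with buffer in TC-1/IR, as IGFBP-2 was.

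IGFBP-5 was most like IL-1β (0.990), G-CSF (0.971), FGF-21 (0.965), IFN-γ (0.962) and Gas 6 (0.951), all but Gas 6 under the floor throughout the resistant tumours. As deposited IGFBP-5 was set to the floor there too. These r therefore mostly reflect shared floored values and are no evidence of common behaviour. IGFBP-3 was most like chitinase 3-like 1 (0.832), followed by eotaxin (0.712), cystatin C (0.649), IL-1α (0.613) and IL-12 (0.607). IGFBP-6 was most like Serpin E1 (0.898), the plasminogen activator inhibitor, followed by CXCL2 (0.781), tissue factor (0.734), CD40 (0.712) and acidic FGF (0.688). Serpin E1 read 7.08, 15.9, 19.5 and 11.7 on the TC-1 membranes and 9.25, 23.1, 10.1 and 3.61 on those of TC-1/IR, where both peaked after RT and were lowest after both treatments. After centring Serpin E1 was no longer among the 5 most like IGFBP-6, and tissue factor led at 0.763.

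Of the cytokines and hormones known to raise liver IGFBP-1, 3 of 5 were called lower in TC-1/IR and 0 higher. The 4 tested had a median log2 difference of -0.88. Of all 75 analytes, 40.0% were called lower and 1.33% higher, with a median of -0.58. FGF-21, a hepatokine of fasting, was lower by a log2 difference of -1.13 (limma adjusted p = 0.00960). It read 4.48 to 7.06 in TC-1 and 1.31 to 2.31 in TC-1/IR, below the floor on all 4 resistant membranes. Like IL-1β it passed the filter only through TC-1, so these 2 had to be lower, and the count of the list is a description. IL-1α had a log2 difference of -0.90 (adjusted p = 0.0205) and TNF-α of -0.87 (adjusted p = 0.0384). IL-1β missed the threshold at -0.54 (adjusted p = 0.0641), and IL-6 was below the floor on all 8 membranes.

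Proteases that cut IGF binding proteins were mostly below the floor. Of MMP-2, MMP-3 and MMP-9, only MMP-2, a gelatinase of stroma, was tested, at 12.8 to 18.1 in TC-1 and 5.93 to 15.0 in TC-1/IR (log2 difference -0.55, limma adjusted p = 0.197). Of 3 partners and relatives, 2 were tested and 0 called. Osteopontin, an integrin ligand, had a log2 difference of 0.14, and Serpin E1 of -0.43. WISP-1, a matricellular protein related to the IGF binding proteins by its first domain, read 1.60 to 2.96 in TC-1 and 0.296 to 0.905 in TC-1/IR and was not tested. None of these lists had a member called for RT or IL-7.

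Markers of other tissues moved with the line in part. The summed signal of 6 endothelial and adhesion molecules was 8.97 to 13.4 in TC-1 and 3.74 to 7.03 in TC-1/IR, with 0 to 2 members above the floor on any membrane. The mean over membranes was lower in TC-1/IR for 5 of the 6, and higher for CD93 (0.70 in TC-1, 0.80 in TC-1/IR). Lower values were common in TC-1/IR, the median log2 difference for line over the 75 tested analytes being -0.58. E-selectin, the one tested, was nearly level at means of 2.85 and 2.73. ICAM-1 was at the placeholder on 3 of 4 TC-1/IR membranes and on 0 of 4 TC-1 membranes, whereas over all analytes 98 TC-1/IR spots and 5 TC-1 spots were placeholders. The sum of 6 plasma proteins of liver was 177 to 251 in TC-1 and 219 to 390 in TC-1/IR. Under buffer, where IGFBP-1 was at the placeholder in TC-1/IR, it was 251 and 219. The sum of 6 stromal and matrix products was 73.1 to 98.6 in TC-1 and 63.0 to 182 in TC-1/IR. That of 4 adipose products was 40.5 to 59.9 and 29.1 to 89.8, and that of 4 myeloid products 109 to 160 and 44.4 to 295. The part of these in the differences of the carriers was not tested.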

How the data were processed

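Lysates of TC-1 and TC-1/IR tumours were measured on 8 membranes of an antibody array with 111 analytes in duplicate. The authors deposited spot intensities on a linear scale; how images were read, background removed and values scaled was not given in the sources used here. A value of about 0.001 stood for no signal. No reference or negative-control spots were in the values used. Duplicate spots were averaged, values under 2.49 were set to it and the deposited intensities were then put on the log2 scale.

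limma 3.58.1 in R 4.3.3 was fitted to 75 analytes, those past the floor on 4 or more membranes, with additive terms for line, RT and IL-7 and 4 residual degrees of freedom, the interactions serving as error. Line interactions (2 residual degrees of freedom) and RT by IL-7 (3) were fitted separately. P-values were adjusted over all analytes by Benjamini-Hochberg, with a threshold of 0.05. They measure the spread between membranes that may each hold 1 or several animals. The limma fits were tested on simulated data with independent noise and with changes only in analytes well above the floor. Shifts shared by a whole membrane and changes near the floor, where most carriers lie, were not covered. Single membranes were compared by size alone, as the report states.

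The text names all 5 carriers, the 5 analytes most correlated with each tested carrier, and lists of carrier-cutting proteases, partners, inducers of liver IGFBP-1 and tissue markers. The family and the lists were proposed with earlier results of these data known, although the rule that picks the carriers uses names alone. Alternatives were median centring, floors of 0.5% and 2%, a floor per membrane, no filter, an intensity trend, treatment as a block, a 2-fold threshold, single spots and leaving out each membrane. Tables were handled with pandas 2.3.3 and numpy 2.4.6 in Python 3.11.15. The number of membranes limits the precision.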

Additional observations from a re-analysis of the deposited data

Results flagged for a closer look

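IGFBP-6 in the 4 TC-1 tumours stood out because the buffer membrane, at 16.5, lay apart from the others, at 19.6 to 20.02. Its gap to the nearest of them was 0.875 of the whole range, beyond Dixon's 95% limit for 4 values. The 4 membranes differ in treatment and are not replicates of 1 condition. Chance alone flags about 1 in 20 such groups, and 10 groups were examined. From lowest to highest the range was 1.22-fold.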

How the results depend on the processing

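The count of carriers called for line was 1 at the floor of 1% and 0 at 2%, where only IGFBP-6 was tested. At 0.5% it was 3, including IGFBP-1, which passed that filter only through TC-1. It was 2 with a floor per membrane, without a filter, with an intensity trend or with treatment as a block. When each membrane was left out it was 0 to 2. It was 0 without the TC-1 membrane after RT and 2 without the TC-1 membrane with buffer. The count of all analytes called for line was 31 of 75, with 27 of 72 after centring. At floors of 0.5% and 2% it was 40 of 96 and 10 of 39. With a floor per membrane it was 32 of 93, and without a filter 22 of 111. With an intensity trend it was 36 of 75, and with treatment as a block 37 of 75. It was 18 of 75 without the 2 TC-1/IR membranes of lowest signal, and 7 to 38 when each membrane was left out. It was 7 without the TC-1 membrane after RT, 9 without that after IL-7, 15 without that after both, and 13 without the TC-1/IR membrane after both. IGFBP-2 was called in 7 of 8 such fits and in all 7 other alternatives in which it was tested (log2 differences -1.69 to -1.04). IGFBP-5 was called in 1 of 8 and 5 of 7. With its TC-1/IR values set to the floor of 1%, its calls there as deposited are no evidence of a direction. The cause of these shifts was not tested beyond the fewer membranes or analytes each setting uses.

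Between the lines, carriers past the rule of size with each treatment in turn (buffer, RT, IL-7, both) numbered 1, 3, 2 and 3. All were lower in TC-1/IR except IGFBP-6 after RT. Of all analytes measured, 51.4%, 36.7%, 57.0% and 56.4% were lower, and 13.3% were higher after RT. Shares at other floors, at 2-fold and for single spots are not given, so the changes in count below have no background there. Under buffer the count became 2 after centring, 3 at the floor of 0.5% and 0 at 2%. After RT it became 1 at a 2-fold threshold. After IL-7 it became 1 after centring, at 2-fold and with the second spot alone, and 0 at the floor of 2%. After both it became 0 at 2-fold and 1 at the floor of 2%. Among treatments in TC-1, RT with IL-7 against buffer went from 2 to 0 at 2-fold and at the floor of 2%. Against RT it went from 1 to 0 at 2-fold and 2 at the floor of 0.5%, and against IL-7 from 0 to 1 after centring and at 0.5%. IL-7 against buffer went from 0 to 1 at 0.5% and with the first spot alone. Among treatments in TC-1/IR, RT against buffer went from 1 to 0 after centring and at 2-fold and to 3 at 0.5%. IL-7 against buffer went from 1 to 0 at 2-fold, at the floor of 2% and with the second spot, and to 2 at 0.5%. RT with IL-7 against buffer went from 1 to 0 after centring, at 2-fold and with the first spot. Against RT it went from 1 to 0 after centring and 3 at 0.5%, and against IL-7 from 2 to 0 at 2-fold and to 1 after centring, at the floor of 2% and with either spot alone.

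Sign changes concerned log2 values that had not passed a test. After centring, IGFBP-6 turned to 0.23 for RT with IL-7 against IL-7 in TC-1/IR, to 0.41 for line, to -0.25 for line by RT and to 0.14 for RT by IL-7, IGFBP-2 to -0.27 for line by RT, and IGFBP-5 to 0.055 for IL-7. With a floor per membrane IGFBP-5 turned to -0.060 for RT and 0.072 for IL-7. Without the 2 TC-1/IR membranes of lowest signal the line difference turned to 0.0092 for IGFBP-3 and 0.35 for IGFBP-6. When each membrane was left out, line ran from -0.36 to 0.27 for IGFBP-6 and -0.30 to 0.0077 for IGFBP-3. RT ran from -0.27 to 0.072 for IGFBP-2, -0.12 to 0.15 for IGFBP-3, -0.050 to 0.13 for IGFBP-5 and -0.17 to 0.46 for IGFBP-6, and IL-7 from -0.11 to 0.080 for IGFBP-5. Line by RT ran from -0.20 to 0.53 for IGFBP-2, -0.43 to 0.23 for IGFBP-5 and -0.78 to 0.81 for IGFBP-6. Line by IL-7 ran from -0.62 to 0.12 for IGFBP-3 and -0.29 to 0.37 for IGFBP-5, and RT by IL-7 from -0.73 to 0.0042 for IGFBP-3. Pairing by animal could not be done, since the labels link no animals and a group is 1 membrane. With the lines paired within treatments as a block, the limma adjusted p for line was 0.00595 for IGFBP-2 and 0.0435 for IGFBP-5. For IGFBP-5 all TC-1/IR values were set to the floor in that fit, so its p is no evidence of a direction. Signal near the floor limits IGFBP-1, IGFBP-3 and IGFBP-5 most.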
